A study of Mus musculus with 30 samples.

Results

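The 83 genes described here belong to families with members that carry, dock, prime and fuse synaptic vesicles. They encode synaptotagmins and Doc2 proteins, syntaxins, vesicle-associated membrane proteins (Vamp), Snap proteins, complexins, syntaxin-binding proteins and Munc13 proteins (Unc13). The others encode Rim proteins (Rims), Rab3, Cadps, Sv2, synapsins, and the synaptophysin and synaptogyrin family. Of the 83 genes, 21 encode syntaxins, Vamp and Snap proteins of the plasma membrane and of general traffic. The genes were chosen by symbol, as the protein-coding genes of these families in the GENCODE M21 annotation, out of 48795 genes in the deposited table. All 83 were in the table, and 78 passed the filter on low counts and were tested. The other 5 were Doc2a, Syt8, Stx19, Cplx3 and Cplx4, with between 1 and 220 counts over the 30 libraries together.

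RNA was sequenced from primary cultures of neuron-enriched dorsal root ganglia (DRG), the ganglia that hold the cell bodies of sensory neurons, of C57/Bl6 wt mice. In the DN condition (10 libraries) the cultures received A-Fos, a dominant negative construct that pairs with Jun proteins and keeps the transcription factor AP-1 off DNA, carried by PHP.S, an adeno-associated virus directed to sensory neurons. The GFP condition (10 libraries) received the same kind of vector with GFP, and the untransduced condition (10 libraries) received none. Replicates are cultures from separate mice, each divided between the conditions, with the age and sex of the mice not given in the sources used here. Titles place replicates 1 to 3 in a plain set, replicates 4 to 6 in a 7DIV set (7 days in vitro) and replicates 7 to 10 in a set whose titles carry a date, called dated here. Other cells of the ganglion remain in such cultures, and a vector directed to neurons leaves their part in a bulk library unknown. Counts of the A-Fos and GFP transgenes were not analysed here.

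Library totals lay between 10.7 and 39.1 M counts (M, 1e+06). Untransduced replicate 4 had the lowest total, and every other library had at least 24.1 M. That library also held 37660 CPM (counts per 1e+06 of the library's total as scaled by TMM factors) of the nuclear RNA Malat1, against 1875 to 8316 CPM in the other libraries, and results that it moves are given with and without it. All 12 pan-neuronal markers (among them Tubb3, Prph and Avil) had counts in every library, and their summed level lay between 2968 and 5011 CPM in DN, 2772 and 4874 CPM in GFP and 3026 and 5225 CPM in untransduced cultures.

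A synaptic vesicle fuses when its Vamp protein zips together with a syntaxin and Snap25 of the plasma membrane into a SNARE complex. Munc13, Rim, Rab3 and Cadps proteins dock and prime the vesicle, complexins bind the assembled SNAREs, and a synaptotagmin on the vesicle triggers fusion when calcium enters. Sv2, synaptophysin-family proteins and synapsins sit on or tether the vesicles. In DRG neurons this machinery serves release of glutamate at central terminals and of neuropeptides from large dense core vesicles, and some members also serve traffic in other cells.

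AP-1 is the factor that A-Fos inhibits, so the sequence before the start site of a few members is shown with the letters of its usual site. RefSeq promoters (GRCm38.p6) were matched for 62 of the 83 members, with 79 sequences of 300 bases, from 250 before the start site to 50 after it. The AP-1 site TGANTCA was searched on both strands and stood in 3 of the 79 sequences (3.8%), those of Syt2, Syt6 and Syt8, against 7.81% of all 32851 promoters of the same length. The cyclic AMP response element TGACGTCA, which neither contains nor lies within that site, stood in 2 of the 79 (2.53%), those of Syn1 and Stxbp3, against 1.79% of all promoters. The upstream 250 bases are printed 5′ to 3′ for the genes named Synpr, Unc13c and Cadps2, since their levels changed most among the members higher in DN cultures, for Syt2, which holds an AP-1 site 183 bases before this start site, and for Syn1, whose level did not pass the test. Capitals mark a motif.
Synpr, chr14:13284530-13284779, plus strand: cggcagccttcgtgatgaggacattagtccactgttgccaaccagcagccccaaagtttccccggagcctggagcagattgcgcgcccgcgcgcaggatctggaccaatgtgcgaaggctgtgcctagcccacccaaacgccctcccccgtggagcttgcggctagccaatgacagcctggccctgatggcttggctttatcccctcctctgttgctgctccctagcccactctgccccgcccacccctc
Unc13c, chr9:73969038-73969287, minus strand: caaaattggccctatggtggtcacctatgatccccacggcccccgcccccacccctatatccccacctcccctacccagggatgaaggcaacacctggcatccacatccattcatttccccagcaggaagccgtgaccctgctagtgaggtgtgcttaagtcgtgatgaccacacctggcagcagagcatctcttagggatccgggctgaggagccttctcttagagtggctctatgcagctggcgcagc
Cadps2, chr6:23839422-23839671, minus strand: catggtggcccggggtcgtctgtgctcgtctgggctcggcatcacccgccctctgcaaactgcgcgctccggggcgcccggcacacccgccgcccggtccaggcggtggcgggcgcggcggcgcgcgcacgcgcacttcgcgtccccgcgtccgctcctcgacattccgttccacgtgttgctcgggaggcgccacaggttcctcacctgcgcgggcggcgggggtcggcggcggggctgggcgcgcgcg
Syt2, chr1:134709050-134709299, plus strand: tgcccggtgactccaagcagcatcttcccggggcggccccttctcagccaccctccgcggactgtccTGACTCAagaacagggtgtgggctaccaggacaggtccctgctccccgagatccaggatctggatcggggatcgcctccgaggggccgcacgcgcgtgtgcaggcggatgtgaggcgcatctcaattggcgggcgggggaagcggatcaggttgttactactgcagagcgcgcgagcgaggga
Syn1, chrX:20920919-20921168, minus strand: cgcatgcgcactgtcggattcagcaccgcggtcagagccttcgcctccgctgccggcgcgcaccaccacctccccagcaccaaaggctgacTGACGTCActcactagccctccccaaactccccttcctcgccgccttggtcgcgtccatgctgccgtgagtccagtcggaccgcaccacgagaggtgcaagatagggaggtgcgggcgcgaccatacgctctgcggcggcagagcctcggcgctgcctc
These matches describe letters in a short window only.

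The members were expressed at very different levels in the cultures. On the scale of CPM per kilobase of exon, averaged over all 30 libraries, Syt4 was at 108 ± 18.7 (SD, n = 30) and Syt11 at 97.2 ± 12.9, and these neighbours in the order did not differ beyond their spread. Both encode synaptotagmins whose first C2 domain does not bind calcium in the usual way. Among the next were Cplx1 at 59.2 ± 14.5, Vamp2 at 54.1 ± 11.2 and Stx12 at 44.7 ± 4.37 CPM per kilobase, again with overlapping spreads. Syt1, the fast calcium sensor of many central synapses, was 36th in this order at 8.50 ± 3.28, below Syt9 at 17.2 ± 5.21 and Syt2 at 11.2 ± 3.28 CPM per kilobase. Of the brain Munc13 genes, Unc13a stood at 6.35 ± 2.10 and Unc13c at 4.33 ± 2.08 CPM per kilobase. Members that changed in DN cultures lay throughout the order, with Syngr3 12th and Doc2b 76th.

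The comparison of DN with GFP cultures asks which genes respond when AP-1 is inhibited, with the vector held the same. Of the 78 tested members, 23 passed an adjusted p of 0.05 (29.5%), 18 higher and 5 lower in DN cultures, whereas 11.4% of all 18063 genes tested did so (7.98% higher and 3.39% lower). Adjusted p-values are from edgeR's quasi-likelihood F test with the replicate as a block and are adjusted by the Benjamini-Hochberg method over all genes tested. The median log2 fold change of the members was 0.09, against 0.00 over all genes. When untransduced replicate 4 was left out, 24 members were higher and 11 lower (44.9%), against 17.9% of all genes (11.8% higher and 6.01% lower), and all 23 kept their call. With upper-quartile scaling, 18 members were higher and 8 lower. Of all genes 11.1% were then called, and 57.1% of those calls were higher against 70.2%. The number lower also changed when single replicate numbers were left out, to 3 without replicate 1, 2, 3, 6 or 8 and to 8 without replicate 4 or 10. Of all genes 7.95%, 8.32%, 8.05%, 10.2% and 11.1% were called either way without replicate 1, 2, 3, 6 and 8. Without replicate 4 and 10 these shares were 16.9% and 11.3%. Of those calls 70.9%, 67.1%, 66.9%, 71.5% and 69.2% were higher without replicate 1, 2, 3, 6 and 8. Without replicate 4 and 10, 61.7% and 68.2% of the calls were higher. In bulk RNA, fewer cells of a type and less RNA per cell cannot be told apart.

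**Figure D1:**
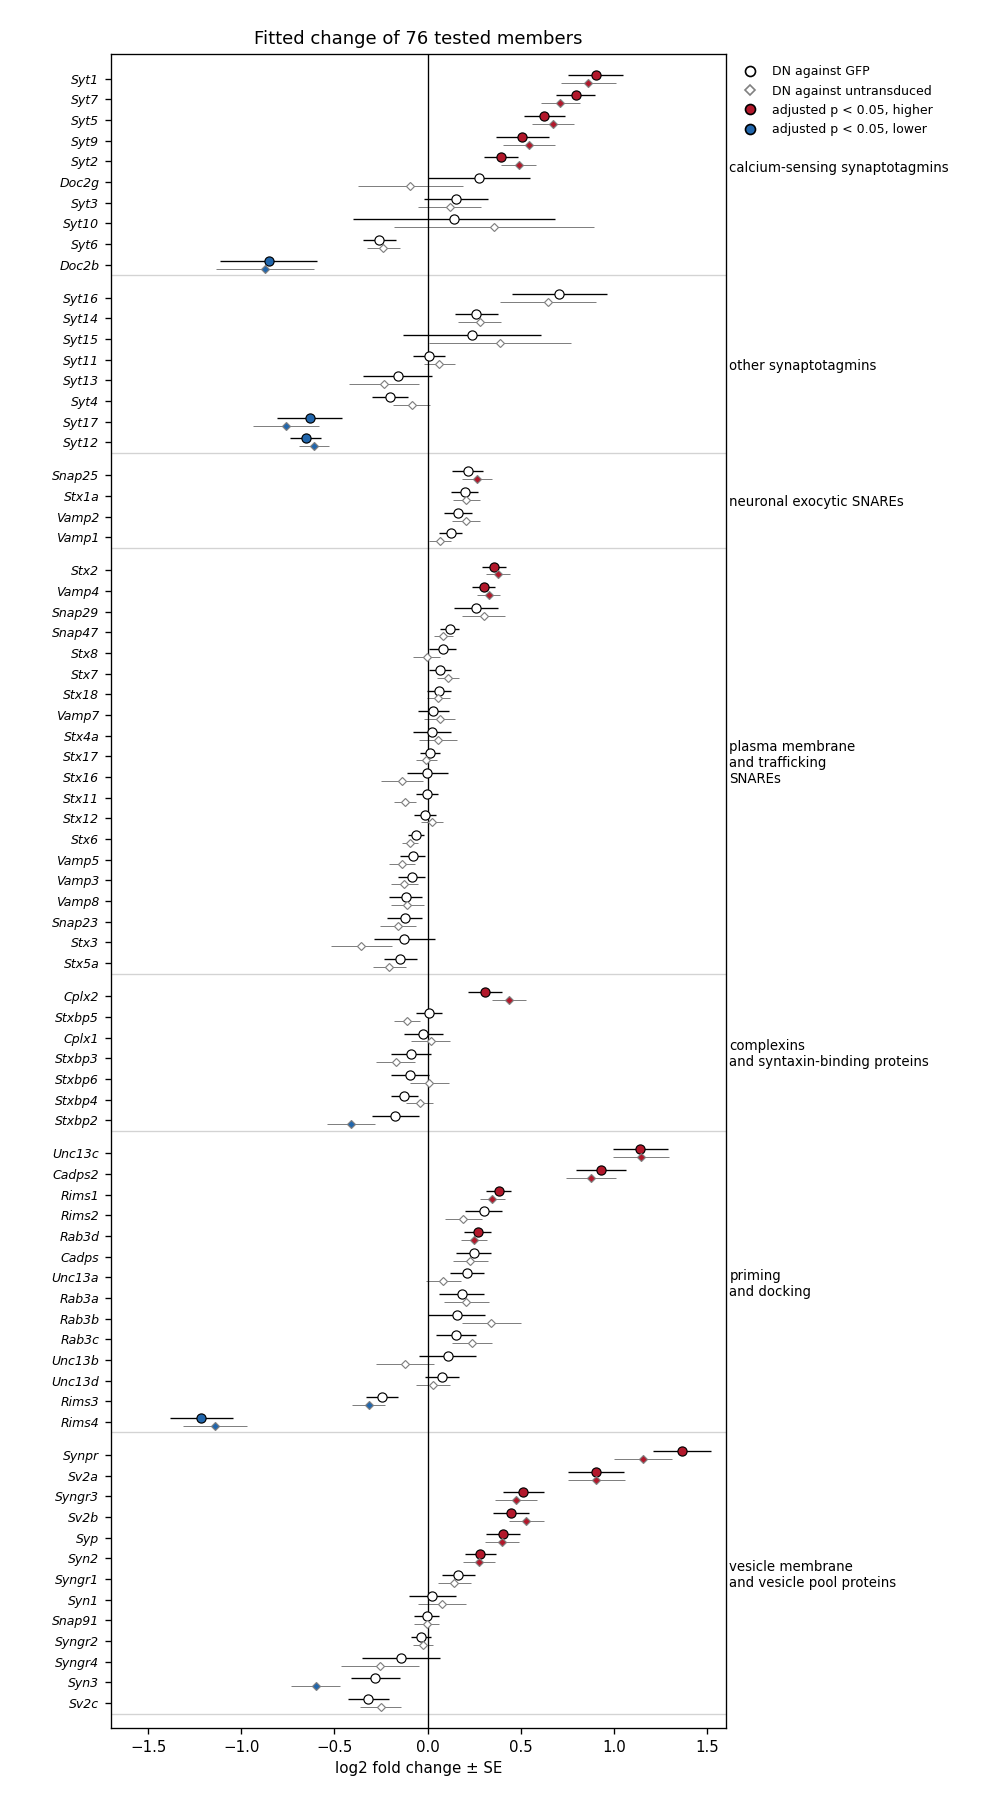
Fitted log2 fold change ± SE of 76 of the 78 tested members, in DN against GFP cultures (circles) and in DN against untransduced cultures (diamonds), grouped by role. Filled symbols passed an adjusted p of 0.05, in red where higher and blue where lower in DN; the calcium-sensing, priming and vesicle membrane groups hold most of the red symbols, while 18 of the 20 plasma membrane and trafficking SNAREs are open.

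Among the calcium-sensing synaptotagmins and Doc2 proteins, 5 of 10 tested members rose and 1 fell in DN cultures. Of all genes 7.98% rose and 3.39% fell. Syt1 (ENSMUSG00000035864, chr10:108497650-109010982, GRCm38) had between 77.3 and 133 CPM, with a median of 97.8, in DN cultures, between 31.3 and 83.2 CPM, with a median of 56.5, in GFP cultures and between 36.6 and 83.3 CPM, with a median of 53.1, in untransduced cultures. The ranges overlapped, and 6 DN libraries lay above every GFP library. It rose 1.87-fold (log2 0.90 ± 0.15 SE, adjusted p = 1.56e-04), higher in 10 of 10 replicates. Syt7 (ENSMUSG00000024743, chr19:10389090-10453180), a slow calcium sensor of high affinity that serves asynchronous release, had 72.6 to 133 CPM, median 98.6, in DN cultures, 33.2 to 90.4 CPM, median 52.4, in GFP cultures and 34.9 to 86.7 CPM, median 58.7, in untransduced cultures. Again 7 DN libraries lay above every GFP library, and the fitted rise was 1.73-fold (log2 0.80 ± 0.10, adjusted p = 6.62e-06) with 10 of 10 replicates higher. Syt5 (ENSMUSG00000004961, chr7:4539765-4547541), another calcium-binding synaptotagmin, had 43.8 to 65.5 CPM, median 54.0, in DN cultures, 27.7 to 51.6 CPM, median 32.4, in GFP cultures and 18.3 to 47.2 CPM, median 34.7, in untransduced cultures. It rose 1.54-fold (log2 0.63 ± 0.11, adjusted p = 2.91e-04), higher in 9 of 10 replicates.

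Syt9 and Syt2, which with Syt1 make up the fast sensors of vesicle fusion, rose as well. Syt9 averaged 84.3 ± 13.8 CPM in DN cultures and 61.9 ± 21.4 CPM in GFP cultures (SD, n = 10 each), with a log2 fold change of 0.51 ± 0.14 (adjusted p = 0.0187). Its call was lost without replicate 1, 2, 3 or 4, where the adjusted p lay between 0.0507 and 0.0822. Syt2 averaged 104 ± 23 CPM in DN cultures and 79.9 ± 21.7 CPM in GFP cultures, and its log2 fold change of 0.39 ± 0.09 (adjusted p = 0.00513) was positive in 10 of 10 replicates. Doc2b, a soluble calcium-binding protein of the same C2-domain kind, was scarce and fell: 0.503 ± 0.131 CPM in DN cultures and 0.984 ± 0.529 CPM in GFP cultures (log2 -0.85 ± 0.26, adjusted p = 0.0321). Its adjusted p was between 0.0584 and 0.0901 without replicate 1, 2, 3, 6, 7 or 8. The 4 members that did not pass were Syt3, Syt6, Syt10 and Doc2g, of which Syt6, at 19.6 ± 3.81 CPM in DN and 23.5 ± 4.92 CPM in GFP cultures, passed without untransduced replicate 4 (adjusted p = 0.0309) and not with it (0.0649). The summed level of all 11 genes of this role was 466.1 ± 68.3 CPM in DN cultures, 320 ± 61.5 CPM in GFP cultures and 314 ± 52.2 CPM in untransduced cultures.

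Of the other synaptotagmins, which do not act as calcium sensors of fusion, 2 of 8 tested fell and none rose. Over all genes 11.4% were called either way. Without untransduced replicate 4 there were 2 lower and 1 higher, against 17.9% of all genes. Syt12 (ENSMUSG00000049303, chr19:4445908-4477447) had 5.39 to 9.70 CPM, median 6.92, in DN cultures, 8.07 to 14.5 CPM, median 11.1, in GFP cultures and 9.17 to 14.7 CPM, median 10.3, in untransduced cultures. In 8 DN libraries its level lay below every GFP library. It fell 1.57-fold (log2 -0.66 ± 0.08, adjusted p = 3.06e-06), lower in 10 of 10 replicates. Exons of an antisense gene, A930001C03Rik, overlap 950 of its 5539 exonic bases, and that gene had 2.03 CPM in DN and 2.49 CPM in GFP cultures (adjusted p = 0.5004). Syt17, which lacks a membrane anchor, averaged 1.51 ± 0.674 CPM in DN cultures and 2.29 ± 0.535 CPM in GFP cultures (log2 -0.63 ± 0.18, adjusted p = 0.0163), and its adjusted p was 0.0507 without replicate 1. Syt11 and Syt4 did not pass: Syt11 averaged 514 ± 55.8 CPM in DN and 512 ± 66.4 CPM in GFP cultures, and Syt4 394 ± 52.1 CPM in DN and 455 ± 86.9 CPM in GFP cultures. Syt16, at 2.20 ± 0.674 CPM in DN and 1.45 ± 0.905 CPM in GFP cultures, passed without untransduced replicate 4 (adjusted p = 0.0458) and not with it (0.0768).

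Stx1a, Snap25, Vamp2 and Vamp1, which encode SNAREs of the core complex of the synapse, did not pass. Stx1a averaged 22.5 ± 2.92 CPM in DN and 19.7 ± 3.59 CPM in GFP cultures, with a log2 fold change of 0.20 ± 0.07 (adjusted p = 0.0924). Snap25 averaged 167 ± 31.4 CPM in DN and 143 ± 20.6 CPM in GFP cultures, with a log2 fold change of 0.21 ± 0.08 (adjusted p = 0.0960) that was positive in 10 of 10 replicates. Both passed as higher without untransduced replicate 4, at adjusted p = 0.0459 for Stx1a and 0.0193 for Snap25. Vamp2 (226 ± 55.1 CPM in DN and 201 ± 38.4 CPM in GFP cultures, log2 0.16 ± 0.07, adjusted p = 0.186) and Vamp1 (64.6 ± 7.82 CPM in DN and 59.3 ± 6.93 CPM in GFP cultures, log2 0.12 ± 0.06, adjusted p = 0.241) passed neither way.

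Of the 20 tested SNAREs of the plasma membrane and of general traffic, 2 rose and none fell, against 11.4% of all genes. Without untransduced replicate 4 there were 4 higher and 1 lower, against 17.9% of all genes. Stx2 (ENSMUSG00000029428, chr5:128984557-129008574), a plasma membrane syntaxin, had 47.7 to 67.6 CPM, median 53.3, in DN cultures, 35.1 to 49.9 CPM, median 45.8, in GFP cultures and 33.1 to 52.0 CPM, median 41.9, in untransduced cultures. It rose 1.28-fold (log2 0.36 ± 0.07, adjusted p = 3.86e-04). Vamp4 (ENSMUSG00000026696, chr1:162570515-162599084), a SNARE of the trans-Golgi network and endosomes, had 80.8 to 105 CPM, median 90.1, in DN cultures, 62.5 to 84.5 CPM, median 74.7, in GFP cultures and 66.2 to 87.6 CPM, median 71.99, in untransduced cultures. It rose 1.23-fold (log2 0.30 ± 0.06, adjusted p = 0.00115), and for both genes 9 DN libraries lay above every GFP library. The other 18 ranged in log2 fold change from -0.15 for Stx5a to 0.26 for Snap29, and the median over the role was 0.01. Without that library Snap29 (adjusted p = 0.00129, 0.178 with it) and Snap47 (0.0432, 0.180 with it) passed as higher, and Stx5a (0.0298, 0.354 with it) as lower.

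Of the complexins and syntaxin-binding proteins, 1 of 8 tested rose and none fell (12.5%, a share near the 11.4% of all genes). Stxbp2, known for secretion by blood cells, also passed without untransduced replicate 4, as lower (adjusted p = 0.0460, 0.489 with it). Cplx2 averaged 101 ± 11.1 CPM in DN cultures and 82.0 ± 15.4 CPM in GFP cultures (log2 0.31 ± 0.09, adjusted p = 0.0242), and lost its call without replicate 3, 7, 8, 9 or 10, with an adjusted p between 0.0614 and 0.0863. Cplx1, its more abundant relative, averaged 130.2 ± 35.3 CPM in DN and 133 ± 33.5 CPM in GFP cultures (log2 -0.02 ± 0.11, adjusted p = 0.933).

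Of the 14 priming and docking genes, 4 rose and 1 fell in DN cultures (35.7%, against 11.4% of all genes). Unc13c (ENSMUSG00000062151, chr9:73479422-73968966) encodes Munc13-3, known for its part in cerebellar granule cells. It had 45.6 to 90.1 CPM, median 55.9, in DN cultures, 13.6 to 38.7 CPM, median 33.7, in GFP cultures and 15.1 to 47.7 CPM, median 28.9, in untransduced cultures. Every DN library lay above every GFP library. It rose 2.21-fold (log2 1.14 ± 0.15, adjusted p = 7.60e-06). Cadps2 (ENSMUSG00000017978, chr6:23262773-23839421), a priming factor for dense core vesicles, had 10.5 to 18.5 CPM, median 13.8, in DN cultures, 5.77 to 9.26 CPM, median 7.15, in GFP cultures and 4.61 to 10.7 CPM, median 7.79, in untransduced cultures. Its DN and GFP ranges did not overlap either, and it rose 1.91-fold (log2 0.93 ± 0.13, adjusted p = 1.79e-05). Unc13c and Cadps2 were the 2 members of 78 tested with separate DN and GFP ranges, a property of 0.847% of all genes.

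Rims4 (ENSMUSG00000035226, chr2:163859751-163918683), a short Rim that holds the last C2 domain and lacks the parts that bind Rab3 and Munc13, went the other way. It had 1.13 to 5.29 CPM, median 2.49, in DN cultures, 2.91 to 8.93 CPM, median 6.05, in GFP cultures and 2.26 to 8.59 CPM, median 5.20, in untransduced cultures. In 9 DN libraries it lay below every GFP library, and DN replicate 6 held the value of 5.29. It fell 2.32-fold (log2 -1.21 ± 0.17, adjusted p = 1.52e-05). The long Rim gene Rims1 (ENSMUSG00000041670, chr1:22286251-22805994), an active zone scaffold, had 20.2 to 34.5 CPM, median 26.4, in DN cultures, 14.2 to 27.0 CPM, median 19.7, in GFP cultures and 15.8 to 33.3 CPM, median 19.5, in untransduced cultures. It rose 1.30-fold (log2 0.38 ± 0.07, adjusted p = 2.20e-04), with 10 of 10 replicates higher and overlapping ranges. Rab3d, a vesicle GTPase, averaged 89.4 ± 11.6 CPM in DN and 74.2 ± 10.1 CPM in GFP cultures (log2 0.27 ± 0.07, adjusted p = 0.0127), and its adjusted p was 0.0516 without replicate 1 and 0.0654 without replicate 2.

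The widely used relatives of these genes did not pass. Unc13a, the main Munc13 of most synapses, averaged 84.1 ± 21.3 CPM in DN and 74.8 ± 27.1 CPM in GFP cultures (log2 0.21 ± 0.09, adjusted p = 0.170). Cadps averaged 184 ± 29.6 CPM in DN and 159 ± 43.1 CPM in GFP cultures (log2 0.25 ± 0.09, adjusted p = 0.0988). Rab3a averaged 58.5 ± 14.97 CPM in DN and 51.2 ± 6.38 CPM in GFP cultures (log2 0.18 ± 0.12, adjusted p = 0.411). Rims3, a short Rim like Rims4, averaged 249.5 ± 51.0 CPM in DN and 302 ± 93.1 CPM in GFP cultures (adjusted p = 0.0761), and Rims2 had an adjusted p of 0.0523. They passed without untransduced replicate 4, Rims3 as lower (adjusted p = 0.0387) and Rims2 as higher (0.00197).

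Of the 13 vesicle membrane and vesicle pool genes, 6 rose and none fell (46.15%, against 11.4% of all genes). Synpr (ENSMUSG00000056296, chr14:13284780-13616340) encodes synaptoporin, a vesicle membrane protein related to synaptophysin, and had the smallest p of all members. It had 31.7 to 63.7 CPM, median 45.1, in DN cultures, 9.72 to 32.7 CPM, median 20.4, in GFP cultures and 12.8 to 37.8 CPM, median 21.7, in untransduced cultures. In 9 DN libraries it lay above every GFP library, and in 9 above every untransduced library. It rose 2.58-fold (log2 1.37 ± 0.16, adjusted p = 1.49e-06). Sv2a (ENSMUSG00000038486, chr3:96181151-96195521), a vesicle glycoprotein and the binding site of the antiepileptic levetiracetam, had 7.61 to 26.1 CPM, median 16.2, in DN cultures, 4.10 to 23.1 CPM, median 7.61, in GFP cultures and 5.10 to 19.8 CPM, median 6.65, in untransduced cultures. Only DN replicate 4 lay above every GFP library, yet the level was higher in 10 of 10 replicates, and the fitted rise was 1.87-fold (log2 0.90 ± 0.15, adjusted p = 1.26e-04).

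Syngr3 averaged 76.1 ± 10.8 CPM in DN cultures and 53.7 ± 11.1 CPM in GFP cultures (log2 0.51 ± 0.11, adjusted p = 0.00220), and Syp, which encodes synaptophysin, 130.0 ± 22.6 CPM in DN and 98.5 ± 17.5 CPM in GFP cultures (log2 0.41 ± 0.09, adjusted p = 0.00320). Sv2b rose to 50.9 ± 8.06 CPM in DN cultures, against 37.5 ± 7.53 CPM in GFP cultures (log2 0.45 ± 0.10, adjusted p = 0.00187), in 10 of 10 replicates. Syn2, a synapsin that tethers vesicles in the reserve pool, averaged 77.7 ± 10.1 CPM in DN and 64.7 ± 13.3 CPM in GFP cultures (log2 0.28 ± 0.08, adjusted p = 0.0272), and lost its call without replicate 1, 2, 3 or 9, where the adjusted p lay between 0.0714 and 0.121. Syn1, the other abundant synapsin, averaged 119 ± 33.7 CPM in DN and 116 ± 20.7 CPM in GFP cultures (log2 0.03 ± 0.13, adjusted p = 0.943). Sv2c, the most abundant Sv2 gene, averaged 290.0 ± 55.8 CPM in DN and 362 ± 73.3 CPM in GFP cultures (log2 -0.32 ± 0.11, adjusted p = 0.0609), and passed as lower without untransduced replicate 4 (0.0186), with upper-quartile scaling (0.0276) and with DESeq2 (0.0167). Syn3 also passed as lower without that library (0.0495, 0.207 with it).

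**Figure D2:**
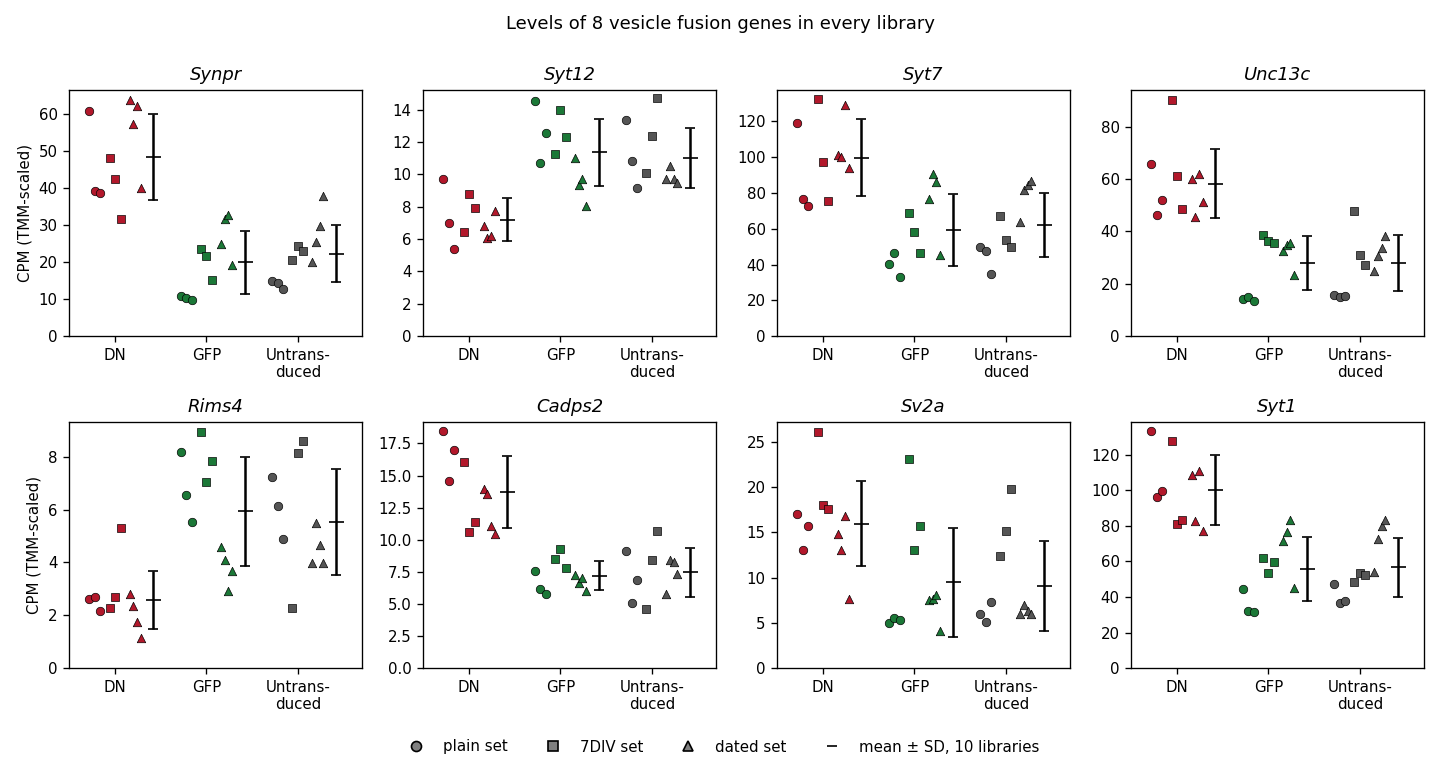
Level in CPM of the 8 members with the smallest p in DN against GFP cultures, in each library of DN, GFP and untransduced cultures, with symbols for the culture set and bars for mean ± SD over 10 libraries. Unc13c and Cadps2 show no overlap between DN and GFP libraries, and in the plain set (circles) Synpr, Unc13c and Syt1 are low in both kinds of control.

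The make-up of several families by paralogue is given next. Shares are percentages of the family's summed CPM per kilobase in each library, and they follow from the levels above rather than adding a further test. Sv2a made up 8.61% ± 1.40 of the Sv2 family in DN cultures, 4.51% ± 2.25 in GFP cultures and 4.76% ± 2.39 in untransduced cultures (SD, n = 10 each). Sv2c made up 75.7% ± 3.32 in DN, 85.1% ± 3.41 in GFP and 85.1% ± 2.96 in untransduced cultures, lower in DN than in GFP in 10 of 10 replicates. Unc13c made up 39.9% ± 3.197 of the Unc13 family in DN, 25.6% ± 4.79 in GFP and 24.1% ± 4.86 in untransduced cultures, close to the share of Unc13a in DN cultures (40.0% ± 5.56). Within the Rim family Rims1 made up 9.22% ± 1.16 in DN, 6.34% ± 1.29 in GFP and 6.24% ± 1.56 in untransduced cultures, and Rims3 stayed the main gene at 80.5% ± 3.47, 84.3% ± 4.14 and 84.3% ± 4.66 in DN, GFP and untransduced cultures. Synpr made up 4.05% ± 0.746 of the synaptophysin and synaptogyrin family in DN, 1.99% ± 0.689 in GFP and 2.27% ± 0.698 in untransduced cultures. By contrast, Vamp2 made up 90.0% ± 1.99 of the Vamp1 and Vamp2 pair in DN, 89.9% ± 1.24 in GFP and 89.2% ± 1.34 in untransduced cultures.

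**Figure D3:**
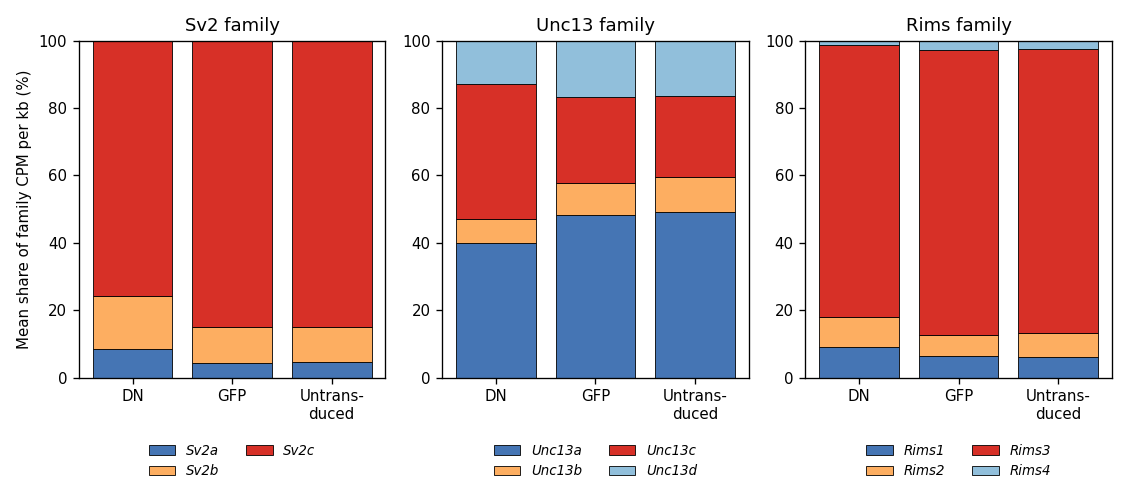
Mean share of each paralogue in the summed CPM per kilobase of its family (percent, bars stacked to 100) in DN, GFP and untransduced cultures, 10 libraries each. The GFP and untransduced bars are close to each other in the 3 families, and the DN bars hold more Sv2a and Sv2b, more Unc13c and more Rims1 and Rims2.

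Set against untransduced cultures, which share the DN libraries with the comparison above, DN cultures had 19 members higher and 7 lower of 78 tested, against 13.2% of all genes (8.94% higher and 4.25% lower). With upper-quartile scaling they were 17 and 10, where 13.3% of all genes were called, 52.0% of them higher against 67.8%. The lower count was 11 when replicate 4 of each condition was left out, where 16.5% of all genes were called, 59.3% of them higher. They were 21 (10.5% of all genes) and 10 (5.96%) without untransduced replicate 4 alone. Without that library Syn2 lost its call (adjusted p = 0.0555), Stx1a (0.0245), Snap29 (0.0326) and Rims2 (0.00423) passed as higher, and Syt6 (0.0371) and Sv2c (0.0201) passed as lower. The 6 members with the smallest p were Unc13c (2.21-fold higher, adjusted p = 8.31e-06), Syt12 (1.53-fold lower, 8.99e-06), Synpr (2.23-fold higher, 1.50e-05), Syt7 (1.64-fold higher, 2.98e-05), Rims4 (2.20-fold lower, 3.82e-05) and Cadps2 (1.84-fold higher, 4.48e-05). No member had DN and untransduced ranges that did not overlap, against 0.770% of all genes. For Unc13c the overlap rested on untransduced replicate 4 at 47.7 CPM: the lowest DN library held 45.6 CPM and the highest other untransduced library 38.3 CPM, and without replicate 4 it was the 1 member with separate ranges, against 1.12% of all genes. Called here and not against GFP were Snap25 as higher (log2 0.27 ± 0.08, adjusted p = 0.0296) and Rims3 (-0.32 ± 0.09, 0.0163), Syn3 (-0.60 ± 0.13, 0.00253) and Stxbp2 (-0.41 ± 0.13, 0.0341) as lower. Exons of Timp3 overlap 1733 exonic bases of Syn3.

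GFP cultures set against untransduced cultures ask what the vector itself does. edgeR called 0 of 78 members and 0 of 18063 genes, and DESeq2 also called 0. At an unadjusted p under 0.05 there were 2 members, Syn3 and Stx11, and 373 genes (2.07%). Syn3, the least abundant synapsin, averaged 5.26 ± 1.52 CPM in GFP and 7.13 ± 4.78 CPM in untransduced cultures (log2 -0.32 ± 0.13, adjusted p = 0.998). Stx11 averaged 20.3 ± 3.25 CPM in GFP and 22.1 ± 4.03 CPM in untransduced cultures (log2 -0.12 ± 0.06, adjusted p = 0.998). Next by p were Stxbp2, Stxbp5, Unc13b and Cplx2, with log2 fold changes of -0.24 ± 0.13, -0.12 ± 0.07, -0.23 ± 0.15 and 0.13 ± 0.09, each at the same adjusted p. Without untransduced replicate 4, Syn3 stood at -0.19 and Unc13b at -0.02 on the log2 scale. Over 16 alternatives of this comparison Stxbp2 lay between -0.291 and -0.066.

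The 3 culture sets were then compared. In the plain set 17 members were higher and 2 lower in DN than in GFP cultures, against 8.00% of all genes (5.61% higher and 2.39% lower). In the 7DIV set 5 were higher and 2 lower, against 2.61% of all genes (1.89% and 0.720%). In the dated set 7 were higher and 1 lower, against 3.16% of all genes (2.05% and 1.11%). Leaving out untransduced replicate 4 gave 24 and 6 in the plain set (15.8% of all genes), 10 and 3 in the 7DIV set (9.77%) and 11 and 2 in the dated set (6.90%). With each set fitted alone they were 32 and 13, 0 and 0, and 7 and 2, in the plain, 7DIV and dated sets, against 22.5%, 0.0529% and 4.17% of all genes. All 23 members called over the sets together had the same direction in each set, and 19 had their largest change in the plain set. Synpr, Unc13c, Syt7 and Syt12 passed in each of the 3 sets, Syt7 in the dated set not without untransduced replicate 4 (adjusted p = 0.0379 with it and 0.0631 without it). Synpr averaged 46.1 ± 12.6 CPM in DN and 10.3 ± 0.555 CPM in GFP cultures of the plain set (log2 2.15 ± 0.22, n = 3 each), 40.6 ± 8.24 and 20.1 ± 4.29 CPM in DN and GFP cultures of the 7DIV set (1.02 ± 0.21, n = 3 each), and 55.7 ± 10.9 and 27.0 ± 6.35 CPM in DN and GFP cultures of the dated set (1.05 ± 0.18, n = 4 each).

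The change itself differed between sets for 2 of the 78 members, against 0.365% of all genes. Unc13c averaged 54.7 ± 10.1 CPM in DN, 14.3 ± 0.676 CPM in GFP and 15.4 ± 0.389 CPM in untransduced cultures of the plain set. In the 7DIV set it averaged 66.7 ± 21.2, 36.9 ± 1.68 and 35.3 ± 10.96 CPM in DN, GFP and untransduced cultures, and in the dated set 54.7 ± 7.63, 31.6 ± 5.54 and 31.9 ± 5.71 CPM. Its log2 fold change of DN against GFP was 1.93 ± 0.17, 0.80 ± 0.16 and 0.79 ± 0.14 in the plain, 7DIV and dated sets, and the F test of the difference gave an adjusted p of 0.0296. DN means lay between 54.7 and 66.7 CPM across the sets, and both kinds of control had their lowest means in the plain set. Syt1 also had its largest change and its lowest GFP mean in the plain set, but its DN mean was highest there. It averaged 110 ± 20.5 CPM in DN and 36.0 ± 7.28 CPM in GFP cultures of the plain set. The DN and GFP means were 97.3 ± 26.3 and 58.3 ± 4.34 CPM in the 7DIV set, and 95.0 ± 17.4 and 69.0 ± 16.8 CPM in the dated set. Its log2 fold changes were 1.61 ± 0.18, 0.72 ± 0.17 and 0.47 ± 0.15 in the plain, 7DIV and dated sets (adjusted p of the difference 0.0471, F test). Without untransduced replicate 4 the difference passed for 6 members, against 3.00% of all genes, among them Sv2a (adjusted p = 0.00656 without it and 0.137 with it). Sv2a averaged 15.25 ± 2.05 CPM in DN and 5.29 ± 0.285 CPM in GFP cultures of the plain set. Its DN and GFP means were 20.6 ± 4.75 and 17.3 ± 5.19 CPM in the 7DIV set, and 13.1 ± 3.94 and 6.85 ± 1.85 CPM in the dated set. Beyond their titles, the difference between the culture sets was not given in the sources used here.

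**Figure D4:**
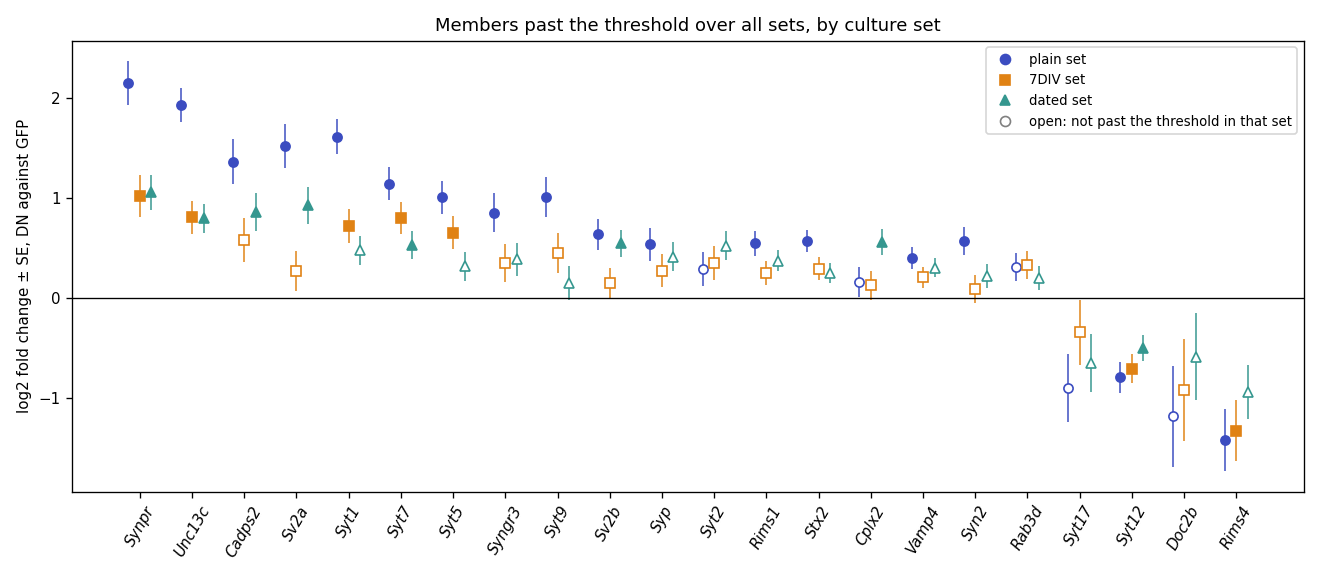
Fitted log2 fold change ± SE of DN against GFP cultures in the plain (3 replicates), 7DIV (3) and dated (4) sets, for 22 of the 23 members that passed over all sets. Filled symbols passed an adjusted p of 0.05 within the set; every member has its 3 symbols on one side of 0, and for 19 of them the plain set lies farthest out.

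In DN against untransduced cultures the counts by set were 17 higher and 2 lower in the plain set, against 8.58% of all genes (5.80% higher and 2.78% lower). They were 13 and 8 in the 7DIV set, against 22.3% (13.1% and 9.27%), and 6 and 2 in the dated set, against 3.13% (1.78% and 1.35%). With untransduced replicate 4 left out they were 25 and 4 in the plain set (17.6% of all genes), 6 and 4 in the 7DIV set (12.2%) and 10 and 8 in the dated set (7.39%). The change differed between sets for Unc13c (adjusted p = 0.0106), Syt1 (0.0153), Rab3a (0.0214), Syn1 (0.0303) and Stx16 (0.0349), against 8.13% of all genes. Rab3a and Syn1 did not pass without that library (adjusted p = 0.0900 and 0.160), while Unc13c, Syt1 and Stx16 did (0.0266, 0.0327 and 0.0394), and 8 members passed then, against 9.23% of all genes. Syn1 averaged 161 ± 16.1 CPM in DN and 102 ± 28.7 CPM in untransduced cultures of the 7DIV set, and 92.1 ± 19.1 CPM in DN and 113 ± 13.1 CPM in untransduced cultures of the dated set. Between GFP and untransduced cultures no member passed in any set, and 0, 0.288 and 0 percent of all genes did in the plain, 7DIV and dated sets.

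Other genes of the release pathway were read in the same fits, DN against GFP. Of 16 active zone scaffold and release site genes, 3 rose and 1 fell (4 of 16, against 11.4% of all genes), with a median log2 fold change of 0.10. Apba1 (Mint1, an adaptor protein of the release site) averaged 253 ± 40.7 CPM in DN and 175 ± 37.8 CPM in GFP cultures (adjusted p = 9.55e-04), Ppfia3 (a liprin) 52.9 ± 10.96 and 41.4 ± 12.8 CPM in DN and GFP cultures (0.00187) and Ppfia4 16.8 ± 4.17 and 13.4 ± 6.38 CPM (0.0159). Rimbp2, a Rim-binding protein named after its values were seen, was the gene that fell, at 10.2 ± 3.31 CPM in DN and 13.4 ± 4.90 CPM in GFP cultures (0.0489). Of 26 genes of SNARE recycling, Rab3 regulation and chaperones, 24 were tested, 2 rose and 1 fell (12.5%, a share near that of all genes), with a median of 0.02. Rab27b, a GTPase of secretory granules, rose 2.34-fold, to 36.9 ± 6.28 CPM in DN against 16.6 ± 6.50 CPM in GFP cultures (adjusted p = 4.77e-08), and its relative Rab27a 1.58-fold, to 23.2 ± 6.33 CPM in DN against 14.9 ± 4.23 CPM in GFP cultures (4.88e-04). Sytl2, a Rab27 effector, fell 1.41-fold, to 41.0 ± 12.7 CPM in DN against 56.7 ± 11.97 CPM in GFP cultures (9.06e-07). Of 27 endocytosis genes, 3 rose and none fell (11.1%, a share near that of all genes), with a median of 0.07, and without untransduced replicate 4 there were 6 higher and 1 lower, against 17.9% of all genes. The 3 that rose with all 30 libraries were Pacsin1, a membrane-bending partner of dynamin, at 121 ± 27.4 CPM in DN and 75.6 ± 20.99 CPM in GFP cultures (1.64-fold, 3.75e-04), Itsn2 at 118 ± 11.95 and 97.8 ± 7.76 CPM in DN and GFP cultures (1.20-fold, 6.09e-04) and Fcho1 at 13.2 ± 1.13 and 10.3 ± 0.960 CPM (1.29-fold, 8.81e-04).

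Levels of markers of the cells in the culture stood beside these changes as follows. Of 12 pan-neuronal markers, 4 were higher and 3 lower in DN than in GFP cultures. This was 58.3% of them, against 11.4% of all genes and 29.5% of the tested members. Their median summed level was 4225 CPM in DN, 4293 CPM in GFP and 3928 CPM in untransduced cultures. Of 6 satellite glia markers 1 fell (Glul), with summed levels of 497 to 964 CPM in DN, 512 to 1096 CPM in GFP and 338 to 1034 CPM in untransduced cultures. Of 6 Schwann cell markers 1 fell (S100b), with summed levels of 1043 to 2369 CPM in DN, 1319 to 2460 CPM in GFP and 751 to 2215 CPM in untransduced cultures. None of 6 fibroblast markers passed, with 3316 to 6482 CPM in DN, 3273 to 5801 CPM in GFP and 2466 to 5375 CPM in untransduced cultures. Of 5 tested macrophage markers 1 fell (Csf1r), with summed levels of 10.6 to 15.6 CPM in DN, 10.7 to 19.6 CPM in GFP and 9.55 to 20.02 CPM in untransduced cultures. None of 5 tested endothelial and mural markers passed, with 114 to 166 CPM in DN, 103 to 140 CPM in GFP and 107 to 142 CPM in untransduced cultures. No marker was at 0 in all libraries of a group. In the plain set, where most called members changed most, 5 of 12 pan-neuronal markers were higher and 2 lower in DN than in GFP cultures. Their median log2 fold change was 0.15, and 8.00% of all genes were called in that set. In the same set the median was -0.295 for satellite glia (1 of 6 lower), -0.24 for Schwann cell (1 of 6 lower), -0.20 for fibroblast, -0.34 for macrophage and -0.13 for endothelial and mural markers, with none called in the last 3 lists. Satellite glia and Schwann cell markers each had 3 of 6 lower there without untransduced replicate 4. Of all genes 15.8% were then called either way in that set, 59.7% of them higher. In the 7DIV set the pan-neuronal, satellite glia, Schwann cell and fibroblast medians were 0.03, -0.06, 0.08 and 0.09, and in the dated set -0.03, -0.14, 0.02 and 0.14. Macrophage markers had medians of -0.401 (7DIV) and -0.275 (dated), so their median was below 0 in each set. Endothelial and mural markers had medians of 0.034 (7DIV) and 0.170 (dated). No marker of these last lists was called in either set. The part of these cells in the members' changes was not tested.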

How the data were processed

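RNA was sequenced in 30 libraries, and the labels give the RNeasy Micro kit and a TruSeq library kit. The authors deposited raw read counts per Ensembl gene. The submitters' processing notes name bcl2fastq 2.17, STAR, HTSeq and GRCm38/mm10. With settings, strandedness and annotation release not given in the sources used here, reads of overlapping antisense genes cannot be told apart. The exons of 23 members overlap another gene. The deposited table of repeat intervals was not used.

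Symbols and positions came from GENCODE M21, which gave a symbol for 48435 of 48795 identifiers. The count model was edgeR 4.0.16 (R 4.3.3): filterByExpr by condition (18063 of 33717 genes with any count), TMM factors and a robust quasi-likelihood fit over all 30 libraries with condition and replicate block. Tests were two-sided F tests with Benjamini-Hochberg adjustment over all genes and a threshold of 0.05. The SE is the size of the log2 fold change over the root of its F value. The F test of culture set by condition terms gave differences between sets. CPM are counts per 1e+06 of the TMM-scaled total. A count of 3, the limit that no count allows, was 0.0757 CPM in the deepest and 0.251 CPM in the shallowest library by scaled total, which covers counting error only.

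The pairing comes from the series design, whose text has each mouse's culture split over the conditions. In the counts, 8 of 30 same-number pairs correlated above 0.1 across genes (median 0.063). No libraries agreed within sampling noise. The fit was tested on simulated data.

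The members and lists were chosen with earlier results of these data known. Named with values were members past the threshold in DN against GFP, a set of core members, the 6 smallest p of the other comparisons and 3 genes per pathway list, with library ranges for the 12 members with the smallest p. Other named members that changed without untransduced replicate 4, and the markers, were chosen after their values were seen. Results that rest on some of the genes in these lists are not reported here. Alternatives were median-ratio and upper-quartile factors, no filter, no replicate block, DESeq2 1.42.0, omission of untransduced replicate 4 or of each replicate number, the 20 DN and GFP libraries, and each set alone.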

Additional observations from a re-analysis of the deposited data

Results flagged for a closer look

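Among the 12 members with the smallest p in DN against GFP cultures, 36 groups of 10 libraries were checked for a library far from the other 9, which chance flags in about 1 in 20 groups. In 3 of them a library stood apart. Unc13c was at 90.1 CPM in DN replicate 4, above the other DN libraries. Rims4 was at 5.29 CPM in DN replicate 6, above the other DN libraries. Rims1 was at 33.3 CPM in untransduced replicate 4, the library of low total and high Malat1.

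Some changes differed between culture sets by their own F test. For DN against GFP cultures these were Unc13c (adjusted p = 0.0296, edgeR) and Syt1 (0.0471), against 0.365% of all genes. For DN against untransduced cultures they were Unc13c (0.0106), Syt1 (0.0153), Rab3a (0.0214), Syn1 (0.0303) and Stx16 (0.0349), against 8.13% of all genes. Of these Rab3a and Syn1 did not pass without untransduced replicate 4 (0.0900 and 0.160). Stx16 averaged 50.2 ± 2.94 CPM in DN and 85.3 ± 42.3 CPM in untransduced cultures of the 7DIV set (SD, n = 3 each). That untransduced mean rests largely on replicate 4: replicates 4, 5 and 6 held 134, 62.4 and 59.4 CPM. With untransduced replicate 4 left out, the adjusted p of the Stx16 difference was 0.0394.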

How the results depend on the processing

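Over 17 alternatives of DN against GFP, 16 of the 23 called members kept their call in each, 7 (among them Cplx2, Doc2b, Rab3d, Syn2, Syt17 and Syt9) lost it in at least 1, and none of the 23 reversed. Of named members that did not pass, Cplx1 lay between -0.079 and 0.010 (log2) as each replicate number was left out, turning to 0.010 without replicate 2, and Syn1 between -0.060 and 0.096, turning to -0.060 without replicate 4 and -0.009 without replicate 5. Syn1 was at -0.009 with upper-quartile factors. Members lower in DN than GFP numbered 8 with median-ratio factors, upper-quartile factors or DESeq2, and 3 with no filter. They numbered 11 without untransduced replicate 4, where 6.01% of all genes were lower, and 10 with the 20 DN and GFP libraries alone. With median-ratio factors 1980 of 18063 genes were called either way, 63.1% of them higher. The shares called either way were 11.1% (upper-quartile factors), 13.2% (DESeq2), 4.57% (no filter) and 17.1% (20 libraries). Of those calls 57.1%, 60.6%, 67.8% and 66.7% were higher. Leaving out each replicate number gave 15 to 20 higher and 3 to 8 lower in DN against GFP, with 7.95% to 16.9% of all genes called. Against untransduced it gave 16 to 26 higher and 5 to 11 lower, with 9.06% to 16.5% of all genes called. For GFP against untransduced it gave 0. Without the replicate block 18 were higher and 5 lower in DN against GFP, with 11.1% of all genes called.

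By set, DN against GFP, fits of each set alone gave 32 higher and 13 lower (plain), 0 and 0 (7DIV) and 7 higher and 2 lower (dated), against 22.5%, 0.0529% and 4.17% of all genes. Without untransduced replicate 4 there were 6 lower (plain), 10 higher (7DIV), and 11 higher and 2 lower (dated), and the change differed between sets for 6 members. For DN against untransduced, each set alone gave 31 higher and 11 lower (plain), 0 and 0 (7DIV) and 6 higher and 4 lower (dated), against 24.4%, 0.0106% and 4.41% of all genes, and without that library there were 4 lower (plain), 6 higher and 4 lower (7DIV), 10 higher and 8 lower (dated), and 8 members whose change differed. A fit of 1 set holds fewer libraries, and the cause of these shifts was not tested. Where no read was counted, the level could still reach 0.0757 CPM in the deepest library and 0.251 CPM in the shallowest.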
